A study of Homo sapiens with 6 samples.

Results

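The genes described here encode subunits of the proteasome. They were taken from the deposited expression table by gene symbol and number 36 of 60675 genes: 6 alpha and 8 beta subunits of the 20S core, 6 ATPases and 12 other subunits of the 19S cap, and 4 subunits of the activators that can replace the cap. Each symbol matched 1 row, and all 36 passed the filter on low values, which kept 13261 genes. The lowest value of any member in any library was 4.91 FPKM, so no member passed the filter through 1 group alone. FPKM relates the fragments sequenced from a gene to its transcript length and to the mapped total. PSMA2, PSMB8 and PSMB9 are not among the 36.

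The proteasome degrades proteins that carry ubiquitin chains. The core is a barrel of alpha and beta rings whose proteolytic sites face the inside, and the cap binds ubiquitin chains, unfolds the substrate with a ring of ATPases and threads it into the barrel. Cells are known to raise the transcription of proteasome genes together through NFE2L1 (NRF1) when proteolysis is impaired, and colon cancer lines depend on the complex as other dividing cells do.

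RNA came from HCT116, an established human colon cancer line. The compared cells stably expressed the K29Q form of PHF5A, in which glutamine replaces a lysine (K29Q, 3 libraries), or wild-type PHF5A (WT, 3 libraries). PHF5A is a subunit of SF3B, the splicing factor complex that binds the intron branch site, and the comparison asks which transcripts differ when the residue is changed. The labels state neither whether the cells' own PHF5A was still present, nor whether a group was 1 stable line or several, nor whether the libraries came from separate cultures, so the p-values reflect no more than library-to-library spread, which may be technical.

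PHF5A itself had 41.4, 45.9 and 45.0 FPKM in K29Q libraries 1 to 3, against 32.4, 34.4 and 32.7 FPKM in WT libraries 1 to 3. Every K29Q library lay above every WT library, at a ratio of mean FPKM of 1.33 (limma on log2 values, adjusted p = 0.11 over all genes). The PHF5A level and the changed residue can therefore not be told apart in this comparison. Gene totals do not show which codon a PHF5A fragment carried. The epithelial markers EPCAM, KRT8, KRT18, KRT19 and CDH1 summed to between 1140 and 1200 FPKM in K29Q and between 1240 and 1400 FPKM in WT. Of the markers of other cell types, 1 of 4 for leukocytes, 1 of 4 for fibroblasts and 0 of 3 for endothelium reached 1 FPKM in every library, the highest value of any was 5.93 FPKM, and 1 fibroblast marker was at 0 in every library. Their sums lay between 2.23 and 2.54 FPKM in K29Q and between 1.95 and 2.71 FPKM in WT for leukocytes, and between 4.59 and 5.95 FPKM in K29Q and between 4.37 and 5.25 FPKM in WT for fibroblasts. The part of marker levels in the results was not tested. Library depth, estimated from the smallest steps of single-exon genes, lay between 33600000 fragments (K29Q 3) and 40000000 fragments (K29Q 2). The column headers carry 1 code for K29Q 1, K29Q 2 and WT 2 (code A) and another for K29Q 3, WT 1 and WT 3 (code B). What the codes stand for is not stated. They have the form of flow cell names, so differences within each code are given beside the pooled ones for many of the genes. Each such difference rests on 1 library of a group, WT 2 under code A and K29Q 3 under code B.

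Proteasome mRNA stayed close to the WT level in K29Q cells. Of the 36 subunit genes, 0 passed an adjusted p of 0.05 over all genes (limma with Benjamini-Hochberg adjustment over 13261 genes; the smallest member value was 0.324), where 0.0528% of all genes tested passed. At an unadjusted p under 0.05 there were 4 members (11.1%), against 12.5% of all genes tested, a share near the background. These 4, namely PSMC3, PSMD2, PSMC4 and PSMB2, were lower in K29Q, where 4.89% of all genes tested were lower at that level, and 0 members were higher, against 7.65%. This count of 4 depended on single libraries. It was 7 without WT 1, 2 without K29Q 1, and 1 without K29Q 3 or without WT 2. The 7 without WT 1 mixed directions and did not include PSMB2. PSMC6, PSME4 and PSMA4 were higher there (log2 fold changes 0.28, 0.26 and 0.23), and PSMC3, PSMC4 and PSMD2 lower (−0.24, −0.20 and −0.19). Processing moved the count too. It was 2 under quantile normalization and 5 with GC and length corrected, where PSME2 was included and higher in K29Q (0.19). The median log2 fold change of the members, computed on log2(FPKM + 1) as K29Q minus WT, was −0.02, against 0.003 over all genes tested. This median was −0.05 within code A, against 0.01 over all genes, and −0.0062 within code B, against 0.01. In RNA from whole cultures, fewer cells with a transcript and less of it per cell cannot be told apart.

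How small a difference the data could hold is shown by the confidence intervals. For 28 of 36 members the 95% interval of the fold change lay within 1.25-fold in either direction (77.8%, against 52.7% of all genes tested), and for 35 it lay within 1.5-fold (97.2%, against 88.8%). PSME3 was the member outside the wider limit. Ratios of mean FPKM, K29Q over WT, ran from 0.848 for PSMB2 to 1.14 for PSME3 and PSME4, with a median of 0.985. The ratio of the highest to the lowest of the 6 libraries had a median of 1.18 over the members and 1.31 over all genes tested. The median SE was 0.0693 over the members and 0.0873 over all genes tested. Interval width and spread can depend on level. The lowest mean of a member was 5.53 FPKM, while the genes tested reach down to the filter at 1 FPKM. No set of genes matched for level was compared, so these contrasts do not show that proteasome genes were unusually stable. The plot of fold changes shows each member with its interval.

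**Figure D1:**
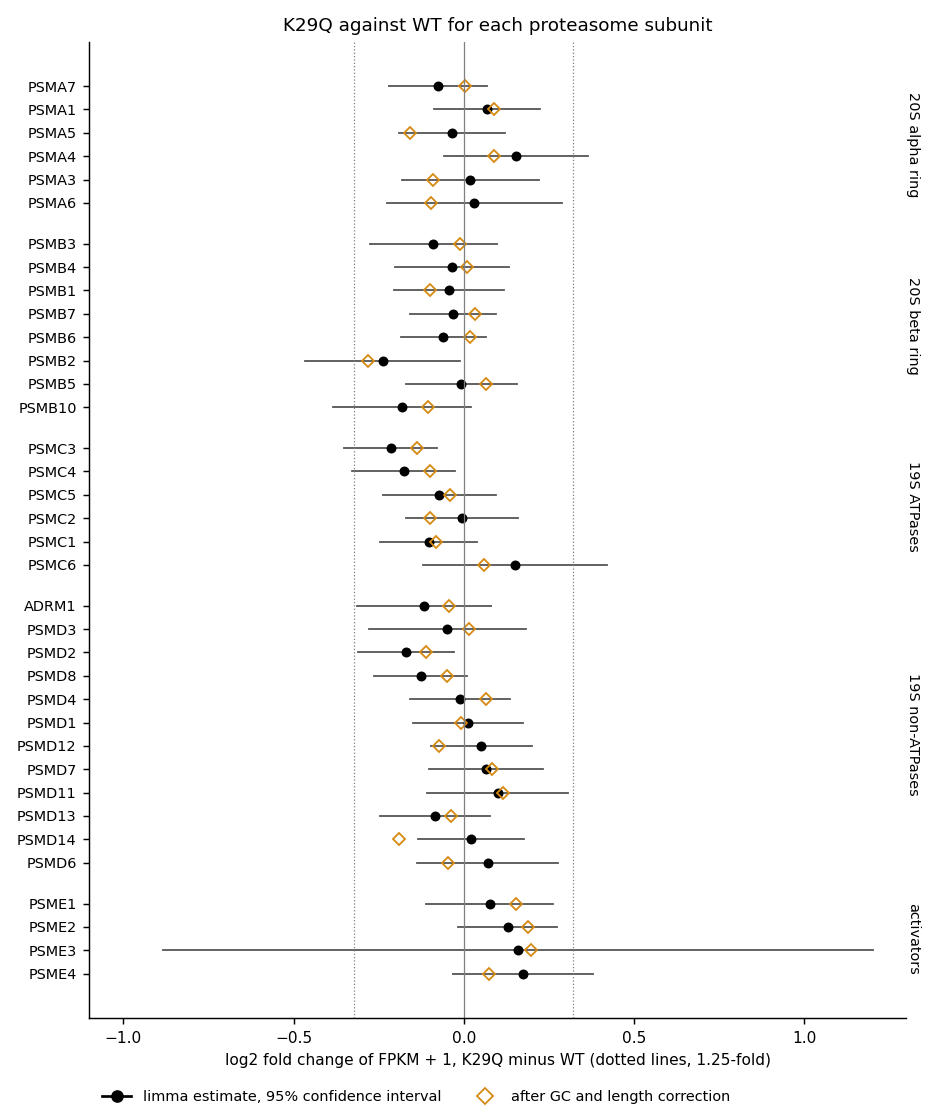
Log2 fold change of FPKM + 1, K29Q minus WT, for each of the 36 proteasome subunit genes (black points) with its 95% confidence interval (bars), and the estimate after correction for GC content and length (open diamonds). The intervals of 28 members lie between the dotted lines at 1.25-fold, and PSME3 has the widest interval.

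Levels differed far more between subunits than between groups. Mean FPKM over the 6 libraries ran from 5.53 for PSMB10 to 174.9 for PSMA7. Within the alpha ring, whose subunits are present in equal number in the particle, it ran from 18.3 for PSMA6 to 174.9 for PSMA7. The order of the 36 levels was nearly the same in K29Q and in WT, with a Spearman correlation of 0.998 across genes, which share libraries and are not independent replicates. The plot of levels shows the members by library.

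**Figure D2:**
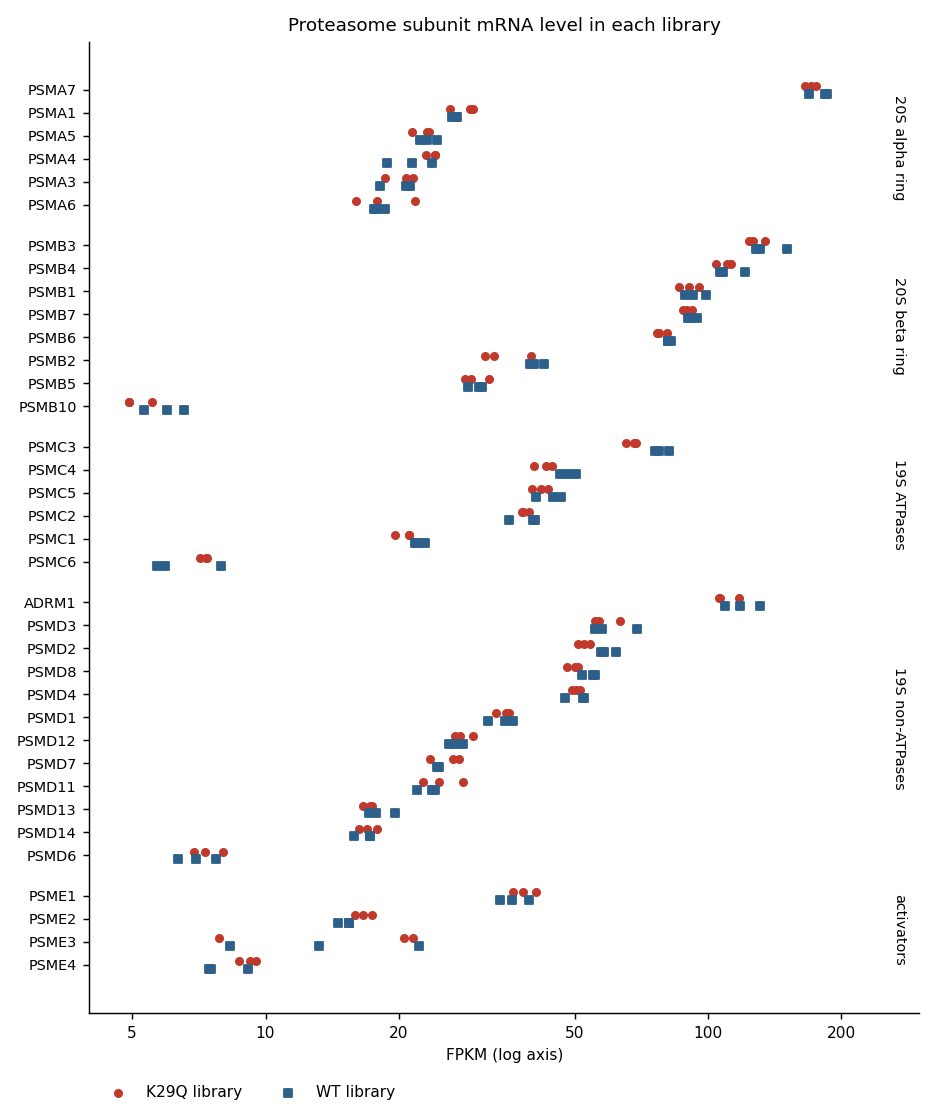
FPKM of the 36 proteasome subunit genes on a log axis, ordered by mean level within each part of the complex, with K29Q libraries as red circles above WT libraries as blue squares. PSMA7 is the highest and PSMB10 the lowest, and PSME3 is the member whose libraries lie farthest apart.

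The alpha subunits form the outer rings of the core, whose tails gate the entry of substrates. Of the 6 genes 0 were called; the fold change was positive for 4 and negative for 2 (median 0.03), and positive for 3 after correction for GC content and length (median −0.04). Without K29Q 2 it was positive for 2 (median −0.04). PSMA7, the member with the highest level, had 174.9, 170.4 and 165.4 FPKM in K29Q 1 to 3, against 169.3, 185.7 and 183.5 FPKM in WT 1 to 3. The groups overlapped, since WT 1 lay below K29Q 1 and K29Q 2. Its log2 fold change was −0.08 (SE 0.061, limma, adjusted p = 0.617), at −0.11 within code A and −0.09 within code B, and it was 0.0046 after GC and length correction, −0.0088 with quantile normalization and −0.12 without WT 1. PSMA4 had 23.0, 24.1 and 24.1 FPKM in K29Q, against 23.8, 18.8 and 21.4 FPKM in WT, where WT 1 lay among the K29Q libraries. Its log2 fold change was 0.15 (SE 0.089, adjusted p = 0.507), with 0.31 within code A and 0.09 within code B. It was 0.09 after GC and length correction, 0.07 without WT 2 and 0.23 without WT 1. PSMA1, PSMA3, PSMA5 and PSMA6 averaged between 18.6 and 28.2 FPKM in K29Q and between 18.0 and 26.8 FPKM in WT, with log2 fold changes from −0.03 to 0.07.

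The beta subunits form the inner rings, and PSMB6, PSMB7 and PSMB5 carry the caspase-like, trypsin-like and chymotrypsin-like proteolytic sites. PSMB5, the target of the inhibitor bortezomib, had 29.1, 32.0 and 28.3 FPKM in K29Q, against 28.6, 30.8 and 30.4 FPKM in WT. PSMB6 had 80.7, 77.6 and 76.4 FPKM in K29Q, against 81.2, 80.9 and 82.6 FPKM in WT. PSMB7 had 89.3, 92.1 and 87.9 FPKM in K29Q, against 90.1, 94.2 and 91.0 FPKM in WT. The PSMB6 groups just missed each other, with K29Q 1 below WT 2, while those of PSMB5 and PSMB7 overlapped. The log2 fold changes were −0.0077 (95% confidence interval −0.17 to 0.16) for PSMB5, −0.06 (−0.19 to 0.07) for PSMB6 and −0.03 (−0.16 to 0.10) for PSMB7. After GC and length correction the estimates of these 3 changed sign, to 0.07, 0.02 and 0.03, and that of PSMB7 lay between −0.05 and −0.01 when single libraries were left out. The PSMB5 level was 0.381 ± 0.0277 of the PSMB6 level in K29Q and 0.367 ± 0.0140 in WT (SD, n = 3 each). In this ratio the groups overlapped (two-sided exact permutation test, p = 0.6, where 0.1 is the smallest possible).

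PSMB2, a structural beta subunit without a proteolytic site, was the beta member with the lowest p. It had 31.3, 39.8 and 32.7 FPKM in K29Q libraries 1 to 3, against 39.5, 42.6 and 40.3 FPKM in WT libraries 1 to 3. K29Q 2 lay above WT 1, so the groups overlapped. The mean was 34.6 ± 4.58 FPKM in K29Q and 40.8 ± 1.61 FPKM in WT (SD, n = 3 each), a ratio of 0.848. On the log2 scale the difference was −0.24, with an SE of 0.097 and an interval from −0.47 to −0.01, and did not pass over all genes (limma, adjusted p = 0.392). It was −0.26 within code A, −0.28 within code B and −0.28 after GC and length correction. PSMB2 lies on chromosome 1, and this was the largest decrease in fitted fold change among the 36 members.

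PSMB10 is the inducible subunit that takes the place of PSMB7 in immunoproteasomes, which cells build under interferon. It had 4.91, 5.53 and 4.91 FPKM in K29Q, against 6.00, 6.53 and 5.32 FPKM in WT, so that K29Q 2 lay above WT 3. The log2 fold change was −0.18 (SE 0.086, adjusted p = 0.434). Its log2 difference was −0.28 within code A and −0.17 within code B, and it was −0.10 after GC and length correction and −0.12 without WT 2. As a percentage of the PSMB10 and PSMB7 levels together, PSMB10 made up 5.39 ± 0.240 in K29Q and 6.08 ± 0.499 in WT (SD, n = 3 each, two-sided exact permutation p = 0.2). The other beta members were PSMB1, PSMB3 and PSMB4, which have no proteolytic site. PSMB3 had the second highest level, with 126.0, 134.6 and 123.7 FPKM in K29Q and 128.1, 150.6 and 131.2 FPKM in WT, and its log2 fold change was −0.09 (SE 0.079, adjusted p = 0.649), at −0.21 within code A and −0.07 within code B. For PSMB3 it was −0.01 after GC and length correction, −0.04 with quantile normalization and −0.02 without WT 2. PSMB1 averaged 90.5 FPKM in K29Q and 93.3 FPKM in WT, and PSMB4 averaged 109.0 FPKM in K29Q and 111.8 FPKM in WT. All 8 beta members lay below 0 in the FPKM fit, with a median log2 fold change of −0.05 and 0 called. With quantile normalization 6 of 8 lay below 0, with TPM scaling 7, and after GC and length correction 4 (median −0.0016). Without WT 2 alone 5 of 8 lay below 0, with a median of −0.01.

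The ATPase ring of the cap contained the member with the smallest p of the set. PSMC3 had 68.7, 67.9 and 65.1 FPKM in K29Q libraries 1 to 3, against 75.6, 81.4 and 77.6 FPKM in WT libraries 1 to 3. Every K29Q library lay below every WT library. The mean was 67.2 ± 1.88 FPKM in K29Q and 78.2 ± 2.92 FPKM in WT (SD, n = 3 each), a ratio of 0.860. On the log2 scale it was −0.21 with an SE of 0.058 (interval from −0.35 to −0.08), which did not pass over all genes (limma, adjusted p = 0.324). The difference was −0.25 within code A and −0.23 within code B, and −0.14 after GC and length correction. PSMC3 (ENSG00000165916) lies on chromosome 11, and its longest annotated transcript has a GC content of 56.2%.

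PSMC4, another ATPase of the ring, had 44.5, 43.0 and 40.4 FPKM in K29Q, against 46.3, 48.2 and 50.2 FPKM in WT. Here too the groups did not overlap. Its log2 fold change was −0.18 (SE 0.064, limma, adjusted p = 0.382), at −0.14 within code A and −0.25 within code B. After GC and length correction it was −0.10. PSMC6, the ATPase with the lowest level, had 7.12, 7.33 and 7.39 FPKM in K29Q, against 7.94, 5.69 and 5.93 FPKM in WT. WT 1 lay above the K29Q libraries and the other WT libraries below them. The log2 fold change was 0.15 (SE 0.114, adjusted p = 0.594), at 0.30 within code A and 0.09 within code B. It was 0.06 after GC and length correction, 0.07 without WT 2, 0.10 without WT 3 and 0.28 without WT 1, with adjusted p between 0.0818 (without WT 1) and 0.856 over the alternatives. PSMC1 averaged 20.6 ± 0.876 FPKM in K29Q and 22.2 ± 0.617 FPKM in WT (SD, n = 3 each) with no overlap between the groups, at a log2 fold change of −0.10 (adjusted p = 0.508). PSMC2 and PSMC5 had log2 fold changes of −0.0055 and −0.07. Of the 6 ATPases 5 lay below 0 with a median of −0.09 and 0 called, 5 also with GC and length corrected (−0.09), and 4 under quantile normalization (−0.06) or TPM scaling (−0.08). Without K29Q 1, K29Q 3, WT 1 or WT 2 it was also 4, with medians between −0.10 and −0.06.

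The other cap subunits include the scaffold proteins PSMD1 and PSMD2, the ubiquitin receptors PSMD4 and ADRM1, and the deubiquitinase PSMD14, which removes ubiquitin chains before degradation. PSMD2 had 50.8, 54.0 and 52.5 FPKM in K29Q, against 57.4, 62.1 and 58.0 FPKM in WT. All 3 K29Q libraries lay below the WT libraries. The mean was 52.4 ± 1.58 FPKM in K29Q and 59.2 ± 2.53 FPKM in WT (SD, n = 3 each), and the log2 fold change was −0.17 (SE 0.060, limma, adjusted p = 0.377). It was −0.24 within code A, −0.14 within code B, and −0.11 both under quantile normalization and with GC and length corrected. PSMD8, a subunit of the lid of the cap, also had no overlap, with 49.5 ± 1.46 FPKM in K29Q and 54.2 ± 1.96 FPKM in WT (adjusted p = 0.422).

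The ubiquitin receptors and the deubiquitinase varied within the spread between libraries. PSMD4 averaged 50.3 ± 0.984 FPKM in K29Q and 50.7 ± 2.81 FPKM in WT. ADRM1 averaged 109.8 ± 6.39 FPKM in K29Q and 119.3 ± 10.8 FPKM in WT. PSMD14 averaged 17.05 ± 0.791 FPKM in K29Q and 16.8 ± 0.796 FPKM in WT (SD, n = 3 each throughout). Their 95% confidence intervals ran from −0.16 to 0.14 for PSMD4, from −0.31 to 0.08 for ADRM1 and from −0.13 to 0.18 for PSMD14. After GC and length correction PSMD14, whose longest transcript has a GC content of 32.0%, stood at −0.19. The remaining members PSMD1, PSMD3, PSMD6, PSMD7, PSMD11, PSMD12 and PSMD13 had log2 fold changes from −0.08 to 0.10, the highest of them for PSMD11. Of the 12 non-ATPase genes 0 were called, and 6 had positive and 6 negative fold changes (median 0.0008). With quantile normalization 8 lay above 0, and after GC and length correction 4.

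Activators can dock on the core in place of the cap. PSME1 and PSME2 form the interferon-inducible PA28 ring, PSME3 forms a nuclear ring of its own kind, and PSME4 is a large single-chain activator. All 4 had positive fold changes in the FPKM fit (median 0.14, limma, 0 called and 0 at an unadjusted p under 0.05), as they did under quantile normalization, TPM scaling and the GC and length correction. Without K29Q 1, K29Q 3 or WT 3 the count was 3, with PSME3 negative, and the median was 0.08 without K29Q 1 and 0.06 without WT 3. PSME2 had 16.6, 17.4 and 15.9 FPKM in K29Q, against 15.4, 15.4 and 14.6 FPKM in WT. It was the 1 member of the 36 whose K29Q libraries all lay above its WT libraries, at a log2 fold change of 0.13 (SE 0.062, adjusted p = 0.437), with 0.13 within code A, 0.08 within code B and 0.19 after GC and length correction. PSME1 averaged 38.4 ± 2.38 FPKM in K29Q and 36.4 ± 2.82 FPKM in WT, and the ratio of PSME1 to PSME2 was 2.31 ± 0.138 in K29Q and 2.40 ± 0.131 in WT (SD, n = 3 each, two-sided exact permutation p = 0.4). PSME4 had 9.50, 8.72 and 9.24 FPKM in K29Q, against 9.12, 7.44 and 7.53 FPKM in WT, with WT 1 among the K29Q libraries. Its log2 fold change was 0.17 (SE 0.087, adjusted p = 0.449), and 0.07 after GC and length correction.

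PSME3 stood apart in its spread. It had 21.5, 7.84 and 20.5 FPKM in K29Q libraries 1 to 3, against 22.2, 13.2 and 8.33 FPKM in WT libraries 1 to 3. High and low libraries occurred in both groups, and under code A both a high one (K29Q 1) and a low one (K29Q 2) were found. The highest library was 2.83 times the lowest, while the next member, PSMC6, reached 1.396 times. The PSME3 log2 fold change of 0.16 had an SE of 0.442 and a 95% confidence interval from −0.88 to 1.20, so these libraries bound the ratio of K29Q to WT only between 0.542 and 2.30. For PSME3 it was −0.01 within code A and 0.55 within code B, it was negative when K29Q 1, K29Q 3 or WT 3 was left out, and it was 0.60 without K29Q 2 and 0.50 without WT 1. BECN1, which overlaps PSME3 on the opposite strand, lay between 4.45 and 6.18 FPKM in the 6 libraries. The strand setting of the quantification is not given in the sources used here, and the part of overlapping reads was not tested.

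**Figure D3:**
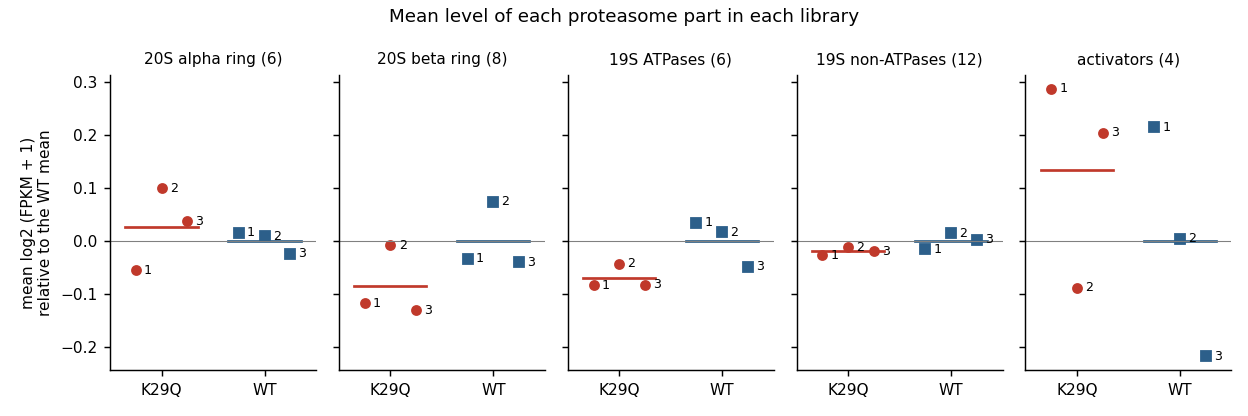
Mean log2(FPKM + 1) of the members of each part of the proteasome, relative to the WT mean, with 1 point per library (red circles K29Q, blue squares WT, numbered by library, number of members in brackets) and bars at the group means. Groups overlap in each of the 5 panels, and the wide spread of the activators includes that of PSME3.

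Averaged over all 36 members, the level relative to the WT mean was −0.03, −0.0060 and −0.02 on the log2 scale in K29Q 1 to 3, against 0.02, 0.03 and −0.05 in WT 1 to 3, so WT 3 lay lowest. Without PSME3 the lowest was K29Q 1. Summed FPKM of the members was 1626, 1649 and 1594.5 in K29Q and 1650, 1741 and 1673 in WT. For 7 members (19.4%) the groups did not overlap, where 17.8% of all genes tested had groups that did not overlap. Among them 6 were lower in K29Q (16.7% of the members, against 9.00% of all genes tested), namely PSMB6, PSMC1, PSMC3, PSMC4, PSMD2 and PSMD8, and 1 was higher (2.78%, against 8.80%). The members that were lower tended to be rich in GC. Across the 36 members the Spearman correlation of GC content with log2 fold change was −0.558, and across the 13108 tested genes with a GC value it was −0.425. The same correlation over the members was 0.141 once the GC and length trends of each library had been subtracted. Members share the same 6 libraries, so these correlations are descriptions.

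Overlapping genes could touch some members. For 14 of 36 members a gene model on either strand overlapped them and reached 1 FPKM in a library, on the same strand for 3 (PSMA1, PSMA6 and PSMC2). None of the 4 members with an unadjusted p under 0.05 was among the 14. The 25 pseudogene rows named after members reached at most 0.922 FPKM. PSMA2, an alpha subunit outside the set, had 21.8 ± 0.476 FPKM in K29Q and 17.6 ± 0.451 FPKM in WT, while RP11-111K18.1, a model that runs through it, had 2.48 ± 0.303 FPKM in K29Q and 10.2 ± 1.14 FPKM in WT (SD, n = 3 each). The PSMA2 groups did not overlap (log2 fold change 0.30, limma, adjusted p = 0.17). Both models lie on the same strand and share most of the PSMA2 stretch. How fragments were divided between them was not tested, so the PSMA2 value alone does not give the total from that stretch. RP11-111K18.1 passed over all genes (log2 fold change −1.68, limma, adjusted p = 0.00352, and between 0.00257 and 0.0567 over the alternatives).

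Genes that assemble or bind, transcribe and supply the proteasome were examined next, as 3 lists of 15, 9 and 18 genes. The list called assembly factors was broader than its name. Beside assembly chaperones it held the small cap subunit SHFM1 (SEM1), and PSMF1, KIAA0368, FAM192A, TXNL1 and ZFAND5. Of each list 0 passed over all genes (limma), and each had 1 gene at an unadjusted p under 0.05. That is 6.67% of the assembly factors, 11.1% of the transcription regulators and 5.56% of the ubiquitin and delivery genes. Over all genes tested it was 12.5%, so no list exceeded the background in this fit. In the same order the counts were 5, 1 and 3 after GC and length correction, and 1, 3 and 2 without WT 1. For these settings the share of all genes at that level is not given. Among the assembly factors the fold change was positive for 5 and negative for 10 (median −0.03, and between −0.07 and −0.0057 when single libraries were left out). PAAF1, which binds the cap ATPases, had 1.34, 1.40 and 1.34 FPKM in K29Q, against 1.69, 1.90 and 1.71 FPKM in WT, with every K29Q library below the WT libraries. Its log2 fold change was −0.23 (SE 0.067, limma, adjusted p = 0.348), at −0.29 within code A and −0.21 within code B, and it was −0.35 with a pseudocount of 0.1. POMP, the chaperone that starts assembly of the beta rings, averaged 109.6 ± 5.02 FPKM in K29Q and 110.6 ± 4.32 FPKM in WT (SD, n = 3 each); it was chosen after its values were seen.

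NFE2L1 encodes the transcription factor known for raising proteasome gene expression. It had 34.6, 29.9 and 36.8 FPKM in K29Q libraries 1 to 3, against 40.9, 43.1 and 42.7 FPKM in WT libraries 1 to 3. All K29Q libraries lay below all WT libraries. The mean was 33.8 ± 3.54 FPKM in K29Q and 42.2 ± 1.14 FPKM in WT (SD, n = 3 each), a ratio of 0.80, and the difference of −0.32 on the log2 scale, with an SE of 0.084 and an interval from −0.52 to −0.12, did not pass (limma, adjusted p = 0.321). It was −0.41 within code A, −0.18 within code B and −0.28 after GC and length correction, and lay between −0.38 and −0.24 when single libraries were left out. NFE2L1 (ENSG00000082641) lies on chromosome 17 from 48048329 to 48061487 (GRCh38, plus strand). Of the 9 transcription regulators, among them NFE2L2, the activating enzymes NGLY1 and DDI2, and the small MAF partners, 4 lay above 0 and 5 below, with a median of −0.02 that changed sign with single libraries (between −0.07 and 0.01).

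The genes of ubiquitin supply and substrate delivery had a median log2 fold change of −0.05, with 7 above 0 and 11 below. UBA6, an E1 enzyme that activates ubiquitin, had 6.50, 6.15 and 7.34 FPKM in K29Q, against 6.23, 4.64 and 4.78 FPKM in WT, where WT 1 lay above K29Q 2. Its log2 fold change was 0.31 (SE 0.114, limma, adjusted p = 0.388), with 0.38 within code A and 0.37 within code B. After GC and length correction it was 0.11, and without WT 1 the adjusted p was 0.0753. UBA1, the main ubiquitin E1, averaged 81.5 ± 0.697 FPKM in K29Q and 89.3 ± 5.12 FPKM in WT with no overlap (adjusted p = 0.437). The segregase subunit VCP, which delivers unfolded substrates, averaged 56.1 ± 0.564 FPKM in K29Q and 58.3 ± 3.74 FPKM in WT (SD, n = 3 each). UBA1 and VCP were chosen after their values were seen.

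**Figure D4:**
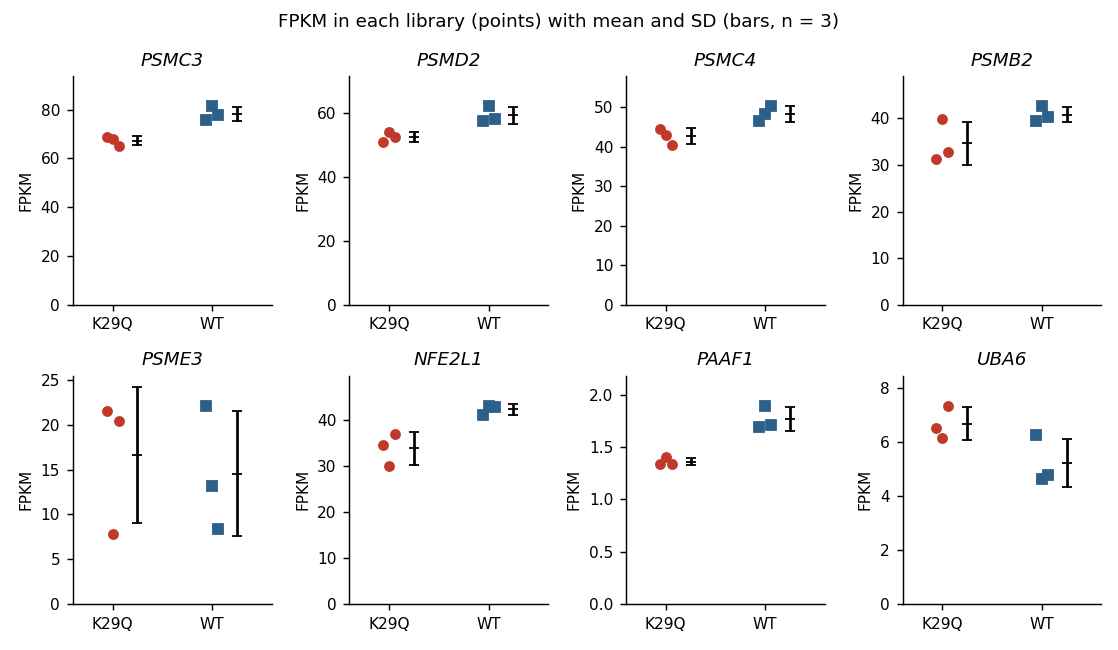
FPKM in each library for the 4 subunits with an unadjusted p under 0.05 (PSMC3, PSMD2, PSMC4 and PSMB2), for PSME3, and for NFE2L1, PAAF1 and UBA6 (red circles K29Q, blue squares WT, bars mean and SD, n = 3 each, axes from 0). Groups do not overlap for PSMC3, PSMD2, PSMC4, NFE2L1 and PAAF1, and they overlap for PSMB2, PSME3 and UBA6.

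Since NFE2L1 is known to act on proteasome genes through antioxidant response elements, the promoter windows of the members were searched for that element. The sequences are RefSeq windows (GRCh38.p14) from 250 bases before to 50 bases after each annotated start, matched by symbol for 31 of 36 members; PSMA7, PSMB1, PSMB6, PSMB7 and PSMD4 are named only. The letters TGACNNNGC followed by A, searched on both strands, occurred in 8 of 31 members (25.8%), against 3.95% of 8835 tested genes with a window and 3.18% of all 35116 windows. Some genes have several windows, and for 6 members any of them could hold the match. Matches in 7 members are shown 5′ to 3′, so that the letters can be compared, on the strand that holds these letters, with the 10 matched bases in capitals and up to 10 flanking bases in lower case:
PSMA4 (chr15:78540650-78540679, plus): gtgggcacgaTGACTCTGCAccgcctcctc
PSMB3 (chr17:38752627-38752656, plus): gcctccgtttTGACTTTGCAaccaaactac
PSMC5 (chr17:63827653-63827682, minus): agggcggcgcTGACACAGCAgatccggtcg
PSMD1 (chr2:231056896-231056916, plus): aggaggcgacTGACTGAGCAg
PSMD12 (chr17:67366723-67366752, minus): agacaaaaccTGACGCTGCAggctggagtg
PSMD3 (chr17:39980829-39980856, minus): ccgcacgaTGACGGAGCAgctgcaaacc
PSME4 (chr2:53971009-53971038, plus): gctctgctggTGACGCTGCAgccgccgggc

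The outer letters are the same by construction of the search. PSMD12 and PSME4 also had the same letters in the 3 free positions. In PSMD1 and PSMD3 the match lay just after the annotated start, and in the others shown before it. A match is a description of the letters and does not show binding. The 8 members with a match had log2 fold changes from −0.12 to 0.17, positive for 4 and negative for 4 (median −0.02). The 23 members with a window and no match ran from −0.24 to 0.16, with 11 above 0, 12 below and a median of −0.0055. PSMC3, PSMD2, PSMC4 and PSMB2 were in the set without these letters. The shorter core TGACNNNGC, which includes every one of these matches, occurred in 35.5% of the members and 19.6% of tested genes with a window. The CCAAT box bound by NF-Y occurred in 51.6% and 43.2%, the ETS letters CCGGAAG in 35.5% and 23.1%, the GC box GGGCGG in 67.7% and 79.4%, and the TATA box TATAAA in 12.9% and 7.33%, each given for the members and then for tested genes with a window and searched on both strands.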

How the data were processed

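Total RNA of 6 HCT116 samples was sequenced. Per the file headers, the deposited table holds FPKM values, 1 per gene and library. The submitters' processing notes name HISAT2 2.1.0, StringTie and GRCh38, in no stated role; annotation, settings and strandedness were not given in the sources used here. FPKM are not counts, so no count test was run.

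Genes with at least 1 FPKM in at least 3 libraries (13261) were kept. Values of log2(FPKM + 1), which understate changes of low genes, entered a limma model (version 3.58.1, under R 4.3.3) with an intensity trend and the group as the only term; the script was tested on simulated data. Adjusted p is Benjamini-Hochberg over all genes kept, with a threshold of 0.05. Coordinates, GC content and overlaps come from GENCODE 29 (GRCh38), by gene ID, and GC content is that of the longest transcript. Alternatives changed the scaling, filter, pseudocount and model terms, or left out 1 library. The correction for GC content and length subtracted each library's spline trend (4 degrees of freedom each) of deviations from the gene mean. The number of libraries and the FPKM scale limit the precision, and 0 columns came from other samples.

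The members and lists were chosen with earlier results of these data known. Values per library are given for PSMB5, PSMB6 and PSMB7, members with an unadjusted p under 0.05, the 5 largest fold changes in each direction and the 2 highest and 2 lowest levels, and for list genes with an unadjusted p under 0.05. Same-numbered libraries were not paired (correlations of their deviations −0.14, 0.179 and −0.165). Among differently numbered libraries the correlation was 0.247 for K29Q 1 with WT 3 and 0.208 for K29Q 3 with WT 1. For the others it lay between −0.115 and −0.05. The part of such shared deviations in the results was not tested. The sequence of 1 promoter match is not reported here.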

Additional observations from a re-analysis of the deposited data

How the results depend on the processing

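Across 16 alternative settings 0 proteasome subunit genes and 0 genes of the 3 pathway lists passed the threshold (limma), and the smallest adjusted p of a subunit was 0.0818 (PSMC6, without WT 1). Over all genes 7 passed, against 81 after GC and length correction, 13 with quantile normalization, 4 with a header code term, 2 with no filter, 3 with the replicate block (the replicate number as a term), 3 with that block and the GC and length correction together, and 5 to 20 when single libraries were left out. The members' median of −0.02 was 0.0111 with quantile normalization. It lay between −0.0497 and 0.0103 when single libraries were left out. Medians of the lists then lay between −0.0692 and −0.0057 (assembly factors), −0.0651 and 0.0124 (transcription regulators), and −0.0589 and −0.0095 (ubiquitin and delivery). After GC and length correction the list medians were −0.0693, −0.0198 and −0.0472 in the same order, against 0.011 over all genes. With the header code term too they were −0.076, −0.0413 and −0.0392, against 0.0158. The header code term with the GC and length correction was chosen after seeing the data. Sign changes among 18 named genes concerned 5 that were not called. With GC and length correction, alone or with the block, PSMA7 was 0.0046, PSMB5 0.0655, PSMB6 0.0193 and PSMB7 0.0314; with the header code term too, PSMB5 was 0.0549, PSMB6 0.0281 and PSMB7 0.0308. With quantile normalization PSMB5 was 0.0113 and PSMB7 0.0108, with TPM scaling PSMB5 was 0.0033. When single libraries were left out PSMB5 lay between −0.0589 and 0.0274 and PSME3 between −0.16 and 0.60. The cause was not tested. Replicate numbers did not pair the libraries (correlation −0.14, 0.179 and −0.165), so the block result is given here only. The 3 libraries per group limit the changes that can be called.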
